A study of Heliconius erato cyrbia and Heliconius erato demophoon with 32 samples.

Results

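The loci described here are the annotated loci of the Z chromosome in Heliconius erato, a butterfly of the American tropics with iridescent blue wings in some subspecies and not in others. They were chosen by their identifiers alone. A locus was taken when its identifier held a reference gene model of the Z chromosome, all of which lie on the scaffold Herato2101, and loci numbered MSTRG.21885 to MSTRG.22085 in the transcript assembly were left out. This gave 414 loci of 24118 in the table. They were drawn from 512 annotated Z loci, of which 98 lay in the omitted stretch. Gene models are numbered along the scaffold, here from 1 to 536, and this number is given for each locus as its place on the chromosome. Coordinates were not used here, and no locus could be paired with a gene name, since 0 of 14137 genes in a reference table for another assembly carried these identifiers.

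In butterflies the female is the sex with unlike sex chromosomes. Females carry a Z with a W, and males carry a pair of Z chromosomes. In several butterflies and moths, Heliconius included, the output of the male pair is known to be lowered so that Z expression in the sexes lies close together. A gene on the Z can also carry differences between populations that are exposed directly in females, which carry a single copy. In the pupal wing each scale grows from a single cell, which first lays down the cuticle ridges that can reflect light as structural colour and later takes up pigment.

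RNA was sequenced from the wings of 16 pupae, 8 of H. e. cyrbia, which is iridescent, and 8 of H. e. demophoon, which is not. All came from captive populations kept at 25°C on Passiflora biflora. Pupae were sampled after 50% or 70% of their development, 4 per subspecies and stage. Each animal gave 2 libraries, 1 of the anterior hindwing, where scales are of another type, and 1 of the forewing with the rest of the hindwing (the main wing). Values are given in the order of animals 1 to 4 (cyrbia at 50%), 5 to 8 (demophoon at 50%), 9 to 12 (cyrbia at 70%) and 13 to 16 (demophoon at 70%). Animals 1, 4, 8, 9 to 12 and 15 were male and the others female, so that all cyrbia animals at 70% were male and each demophoon group had 1 male and 3 females. Tissue identity could not be checked against marker genes, because the loci have no gene names. In whole wing tissue, fewer cells of a type and less RNA per cell cannot be told apart.

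Library totals ran from 9330883 to 68986011 counts. Multidimensional scaling placed no library apart from its group. It used the loci that differed most between libraries, after loci with low counts were removed. Levels are in CPM, which are counts scaled to a common library size, here after TMM normalisation. A locus was called differentially expressed (DE) at a false discovery rate (FDR) below 0.05 over all loci tested, in edgeR's quasi-likelihood F test.

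The annotated Z loci, 1.72% of the table, held between 0.958% and 1.65% of the counts of a library. Of the 414 loci, 354 had a count in at least 1 library and 60 had none. As a mean over the 32 libraries, 25 loci were at 100 CPM or more, 101 between 10 and 100 CPM, 79 between 1 and 10 CPM and 149 above 0 and below 1 CPM. In percent, 6.04% of the Z loci were at 100 CPM or more and 24.4% between 10 and 100 CPM, against 7.18% and 31.9% of 12333 annotated loci on the other chromosomes. Part of the low end was made of 110 loci known by a gene model alone, with no assembled transcript. None of these had more than 399 counts in all libraries together, and 49 had no count. The filter on low counts left 248 of the 414 loci for testing in the main wing, 254 in the anterior hindwing, and 159 in neither.

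Expression was concentrated in few loci. The 5 most abundant took 36.6% of the CPM of all 414 and the 10 most abundant 49.8%. MSTRG.21842 (gene model 231) was the highest, with a mean of 1279.6 CPM over the 32 libraries. It had 1071, 1357, 1419.7 and 1358 CPM in the cyrbia main wing at 50%, against 1410.1, 1337, 1623 and 1295 CPM in demophoon, and 1297, 1031, 1402 and 1473 CPM at 70%, against 1139, 954, 1204 and 1199.9 CPM. The subspecies overlapped at each stage, and the stages overlapped in cyrbia. In demophoon every library at 50% lay above those at 70%. None of its subspecies or stage differences passed the FDR. The other 4 most abundant loci, MSTRG.22282, MSTRG.21831, MSTRG.22135 and MSTRG.21874, each differed between stages in at least 1 subspecies and are described below.

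The 126 Z loci with a mean of at least 10 CPM varied more among the cyrbia animals at 50% than in any other group. Their median coefficient of variation over the 4 animals was 33.9% in the cyrbia main wing at 50%, against 20.7% in demophoon, and 19.8% in cyrbia at 70%, against 22.4% in demophoon. The anterior hindwing had 32.2% in cyrbia and 20.2% in demophoon at 50%, and 19.4% in cyrbia and 24.7% in demophoon at 70%. Annotated loci of the other chromosomes at the same level also varied most in cyrbia at 50%. Their median was 25.0% in that main wing and 26.1% in that anterior hindwing, and between 17.3% and 19.3% in the other groups. A test of this difference in spread was not made.

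The level of the Z chromosome as a whole was taken as the median log2 CPM of its annotated loci minus that of annotated loci on the other chromosomes, over loci with a mean log2 CPM above 3 (128 Z loci and 4896 others). This Z level is given as a description, with no test. At 50% it was 0.31, 0.10, −0.04 and 0.27 in the main wing of cyrbia animals 1 to 4, against 0.54, 0.49, 0.45 and 0.54 in demophoon animals 5 to 8. The 4 demophoon libraries lay above the 4 cyrbia libraries. The female animals alone showed the same separation, with 0.10 and −0.04 in the 2 cyrbia females and 0.45 to 0.54 in the 3 demophoon females. In the anterior hindwing at 50% the ranges overlapped, at −0.05 to 0.39 in cyrbia and 0.31 to 0.43 in demophoon.

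At 70% the Z level lay between −0.13 and 0.15 in the cyrbia main wing and between 0.00 and 0.21 in that of demophoon, and the ranges overlapped. The demophoon main wings at 70% were all below those at 50%, whereas in cyrbia the ranges of the stages overlapped. All cyrbia animals at 70% were male, and the cyrbia males at 50%, at 0.31 and 0.27, lay above all of them. The overlap was with the cyrbia females at 50%, so that sex and stage are mixed in this comparison. Within cyrbia at 50% the males lay above the females, at 0.31 and 0.27 against 0.10 and −0.04 in the main wing, and at 0.29 and 0.39 against 0.20 and −0.05 in the anterior hindwing. In demophoon the single male of each stage lay above the 3 females in the main wing at 70% alone, at 0.21 against 0.00 to 0.03, and was within or below their range in the other 3 sets of libraries. With loci of a mean log2 CPM above 0 in place of 3, the picture changed. The main wing ranges then overlapped at 50%, at −0.12 to 0.29 in cyrbia and 0.21 to 0.41 in demophoon, and were apart at 70%, at −0.31 to −0.20 in cyrbia and −0.14 to −0.02 in demophoon. The anterior hindwing ranges at 70% were apart too, at −0.27 to −0.20 in cyrbia and −0.11 to 0.06 in demophoon. The cyrbia main wings at 70% then also lay below those at 50%, as in demophoon.

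**Figure D1:**
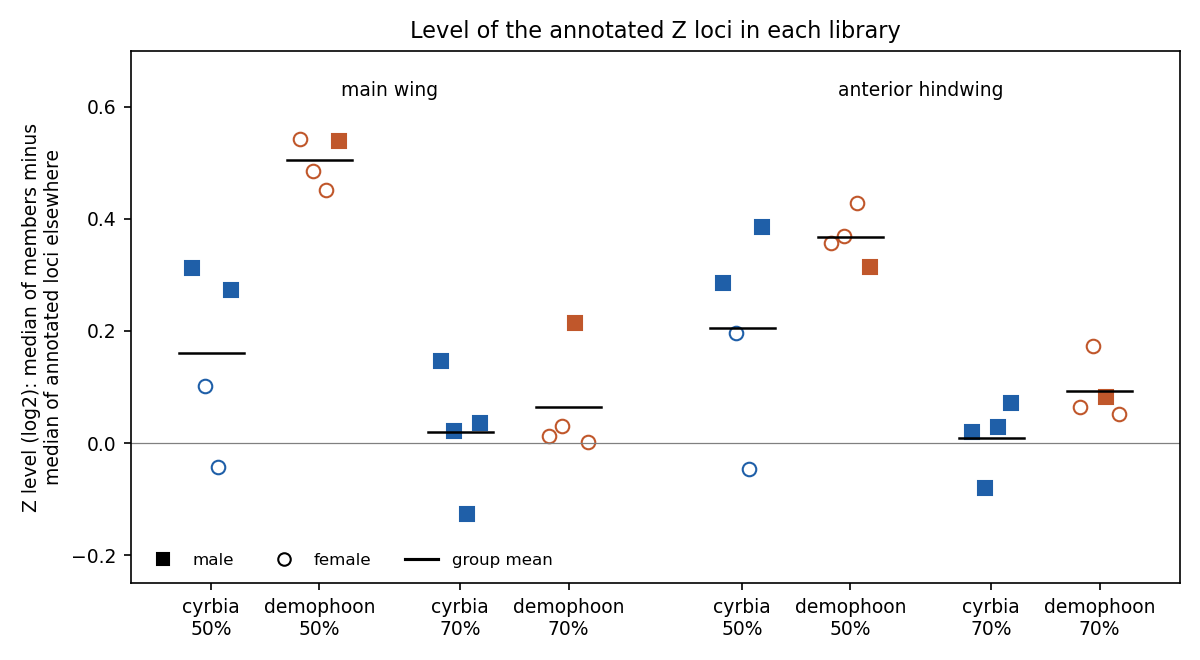
Z level of each of the 32 libraries (log2, median of the annotated Z loci minus median of annotated loci elsewhere), by wing region, stage and subspecies, with males as filled squares, females as open circles and the mean of 4 animals as a line. In the main wing at 50% the 4 demophoon libraries lie between 0.45 and 0.54, above the 4 cyrbia libraries, and at 70% both subspecies lie near 0.

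The question of sex was asked within groups, by adding sex to the fit. No Z locus passed the FDR in either region (edgeR, all loci 0.0129% for the main wing and 0% for the anterior hindwing). In the main wing 20 of 248 Z loci had an unadjusted p below 0.05 (8.06%, against 2.74% of all 15485 loci tested), 14 of them higher in males. For the anterior hindwing it was 23 of 254 (9.06%, against 3.83% of all 16457 loci), 15 of them higher in males. DESeq2 also called 0 Z loci in both regions. The fitted male minus female difference was above 0 for 172 of 248 Z loci for the main wing and 161 of 254 for the anterior hindwing. Its median was 0.15 and 0.14 on the log2 scale, against 0.05 and −0.01 for annotated loci elsewhere. The medians of the 20 other chromosomes lay between 0.02 and 0.09 in the main wing and between −0.04 and 0.03 in the anterior hindwing, below the Z in both. The cyrbia animals at 70%, all male, add nothing to this estimate.

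The first question was which Z loci differ between an iridescent and a non-iridescent subspecies, and it was put to the main wing at 50%. Of the 248 Z loci tested, 31 were DE (12.5%, against 9.69% of all 15485 loci), with 11 higher in cyrbia (4.44%, against 4.33% of all loci) and 20 lower (8.06%, against 5.36%). Among annotated loci of the other chromosomes 5.54% were DE, and single chromosomes ran from 2.80% (chromosome 4) to 7.71% (chromosome 15), so that none of the 20 reached the share on the Z. The median log2 fold change of the Z loci was −0.16, against 0.10 for annotated loci elsewhere, and 27 of the 31 DE loci differed by at least 2-fold. Among 254 loci tested in the anterior hindwing of the same animals 27 were DE (10.6%, against 11.4% of all loci and 6.58% of annotated loci elsewhere), 12 higher (all loci 4.76%) and 15 lower (all loci 6.61%).

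The count in the main wing rested in part on single animals. It was 15 without animal 7, 16 without animal 8, 17 without animal 5 and 18 without animal 3 or animal 4. With only the 8 libraries of the stage it was 20, with sex in the fit 23, and in the anterior hindwing 17 without animal 6. At 50% the share of Z loci called stayed above that of annotated loci elsewhere in all 22 main wing alternatives, at 5.69% to 18.5%. In each case the fits share the same animals.

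**Figure D2:**
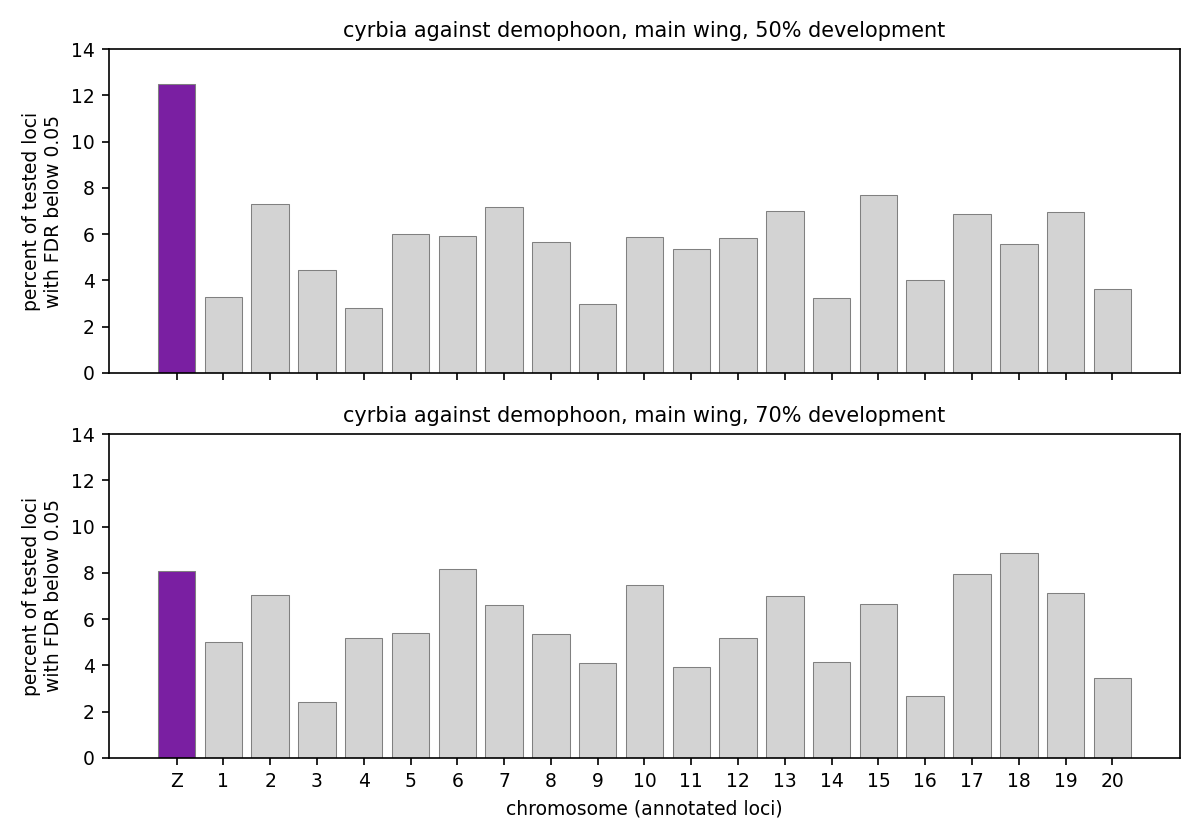
Percent of tested annotated loci with an FDR below 0.05 between cyrbia and demophoon in the main wing, for the Z (purple, without the omitted stretch) and each of the other 20 chromosomes (grey), at 50% development above and 70% below. At 50% the Z has 12.5% and no other chromosome more than 7.71%, while at 70% the Z has 8.06% and 2 other chromosomes have more.

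Among the Z loci higher in cyrbia at 50%, MSTRG.22230 (gene model 485) combined a high level with a clear separation. It had 302, 205, 196 and 121 CPM in the cyrbia main wing, against 4.61, 20.5, 11.4 and 16.1 CPM in demophoon (log2 fold change 3.97, SE 0.51, edgeR FDR 0.000321). The anterior hindwing of the same animals had 225, 201, 245 and 142 CPM in cyrbia, against 5.84, 7.47, 5.79 and 14.9 CPM in demophoon (log2 fold change 4.57, SE 0.42, edgeR FDR 1.82e-05). In both regions the lowest cyrbia library was several times above the highest demophoon library. At 70% the main wing had 15.9, 14.3, 22.7 and 24.7 CPM in cyrbia, against 3.71, 8.79, 11.8 and 16.4 CPM in demophoon, a difference that did not pass the FDR (edgeR FDR 0.223).

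MSTRG.21689 (gene model 124) had 11.8, 3.41, 40.5 and 26.2 CPM in the cyrbia main wing at 50%, against 0.725, 0.411, 0.353 and 0.259 CPM in demophoon (log2 fold change 5.53, SE 0.74, edgeR FDR 0.000449). The groups did not overlap, and the 4 cyrbia animals spread over more than 10-fold. Its anterior hindwing levels were likewise higher in cyrbia, with 10.8, 4.5, 54.4 and 24.8 CPM, against 0.747, 0.603, 0.467 and 0.744 CPM in demophoon (edgeR FDR 0.00089). Its neighbour MSTRG.21688 (gene models 122 and 123) spread as widely in the same cyrbia animals, with 27.9, 4.26, 286 and 163 CPM in the main wing, against 55.9, 57.9, 35.8 and 33.4 CPM in demophoon, and did not pass (edgeR FDR 0.333).

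MSTRG.22282 (gene model 508), the second most abundant Z locus, split the cyrbia animals at 50%. The main wing had 209, 242, 2104 and 2059.9 CPM in cyrbia, against 248, 214, 119 and 149 CPM in demophoon (log2 fold change 2.66, SE 0.66, edgeR FDR 0.0203). Animals 1 and 2 lay within the demophoon range, while animals 3 and 4 were near the level of the later stage, 2283, 3027, 1367 and 3340.2 CPM in cyrbia at 70%. Animal 3 was female and animal 4 male. The anterior hindwing of these 4 animals showed the same split, at 89.3, 267, 2295 and 1389 CPM. Without animal 3, 4, 7 or 8 the call ended (edgeR FDR 0.0534 to 0.0626), as it did with the 8 libraries of the stage alone (edgeR FDR 0.0871).

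MSTRG.21533 (gene models 44 and 45) and MSTRG.21867 (gene model 255) were the other loci named as higher at this stage. MSTRG.21533 had 4.77, 4.74, 19.4 and 37.5 CPM in the cyrbia main wing, against 5.82, 4.52, 2.33 and 5.52 CPM in demophoon, and its call was the weakest of the 31 (edgeR FDR 0.0498). It ended without any of animals 3 to 16 (edgeR FDR 0.0535 to 0.182), and without animal 4 the log2 fold change was 1.09. The same held with RLE size factors, no filter, sex in the fit, summed regions or the 8 libraries of the stage alone (edgeR FDR 0.0512 to 0.162). MSTRG.21867 had 19.7, 6.44, 9.01 and 9.65 CPM in cyrbia, against 4.11, 2.77, 3.88 and 5.21 CPM in demophoon (log2 fold change 1.49, SE 0.36, edgeR FDR 0.0177), with no overlap. Its call ended without animal 1, 6 or 7 (edgeR FDR 0.0509 to 0.0680). At 70% neither locus differed beyond the spread of the animals, with edgeR FDR 0.918 and 0.964.

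The 20 loci lower in cyrbia at 50% had log2 fold changes down to −9.52. MSTRG.22315 (gene model 533) had 3.14, 2.21, 7.26 and 2.68 CPM in the cyrbia main wing, against 18.8, 38.8, 35.3 and 21.3 CPM in demophoon (log2 fold change −2.89, SE 0.46, edgeR FDR 0.00151). The groups did not overlap here or in the anterior hindwing, where cyrbia had 2.15 to 8.85 CPM and demophoon 16.5 to 49 CPM. At 70% they did overlap, at 4.62 to 11.3 CPM in the cyrbia main wing and 5.55 to 16 CPM in demophoon. MSTRG.21759 (gene model 179) had 5.77, 6.56, 2.71 and 4.5 CPM in the cyrbia main wing, against 14.8, 11.9, 22.9 and 22.7 CPM in demophoon of that stage (log2 fold change −1.88, SE 0.35, edgeR FDR 0.00449). Its difference in the anterior hindwing did not pass (edgeR FDR 0.118).

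MSTRG.22155 (gene model 443) had 0.244, 0.142, 1.47 and 2.47 CPM in the cyrbia main wing at 50%, against 10.4, 7.08, 5.21 and 84.5 CPM in demophoon (log2 fold change −4.64, SE 1.16, edgeR FDR 0.0209). Animal 8, the demophoon male, was at 8 or more times the level of the other 3 demophoon animals, and in its anterior hindwing the locus was also high (54.7 CPM, against 2.86 to 4.71 CPM in animals 5 to 7). Without animal 8 the log2 fold change was −2.80 and the call ended (edgeR FDR 0.136), as it did without animal 1 (edgeR FDR 0.0572) and with the 8 libraries of the stage alone (edgeR FDR 0.0571). Without animal 4 the log2 fold change was −5.41. The 3 demophoon females were still above the 4 cyrbia animals.

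A further 3 of the loci lower in cyrbia had no count in any cyrbia main wing at 50%, so that folds are lower bounds set at 3 counts per library. MSTRG.21787 (gene model 196) had 217, 0, 132 and 110 counts in demophoon and was at least 31.3-fold lower in cyrbia. MSTRG.22090 (gene model 409), with 89, 27, 77 and 88 counts in demophoon, was at least 26.1-fold lower, and MSTRG.21552 (gene model 57), with 149, 20, 7 and 112 counts, at least 23.1-fold lower. Both of these were named after their values were seen, outside the rule for named loci. The groups did not overlap, apart from the count of 0 of MSTRG.21787 in demophoon animal 6. In the cyrbia anterior hindwing MSTRG.22090 had 61, 0, 0 and 0 counts and MSTRG.21552 7, 0, 4 and 0 counts, so that neither was silent in every cyrbia library.

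At 70% of development 20 of 248 Z loci were DE in the main wing (8.06%, against 9.17% of all 15485 loci), 5 higher (all loci 3.25%) and 15 lower (all loci 5.92%) in cyrbia. Annotated loci elsewhere were DE in 5.89%, and chromosomes 6 and 18 had a larger share than the Z. The median log2 fold change of the Z loci was −0.09, against 0.03 elsewhere. The anterior hindwing had 23 DE loci of 254 (9.06%, against 9.64% of all loci and 5.93% of annotated loci elsewhere), 6 higher (all loci 3.46%) and 17 lower (all loci 6.18%). As subspecies and sex overlap at this stage, sex was added to the fit, and 12 Z loci then passed in the main wing (2 higher, 10 lower), and 14 did in the anterior hindwing. Under that fit 4.84% of Z loci and 2.60% of annotated loci elsewhere were called in the main wing, and 5.51% and 3.18% in the anterior hindwing. Without 1 animal the main wing count lay between 14 (animal 9) and 24 (animal 16). The share of Z loci called in this main wing comparison was above that of annotated loci elsewhere in 21 of 22 alternatives. The exception was DESeq2, which called a smaller share of the Z loci than of annotated loci elsewhere.

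The strongest call among the loci higher in cyrbia at 70% was MSTRG.21653 (gene model 110). It had 26.2, 26.2, 17.8 and 30.3 CPM in the cyrbia main wing, against 1.73, 1.38, 2.9 and 2.13 CPM in demophoon (log2 fold change 3.62, SE 0.42, edgeR FDR 0.000136). The anterior hindwing gave 16, 11.5, 13.1 and 19 CPM in cyrbia, against 0.966, 0.532, 1.29 and 2.23 CPM in demophoon (log2 fold change 3.60, SE 0.51, edgeR FDR 0.000605). The groups were far apart in both regions, whereas at 50% they overlapped, with 576, 801, 1961 and 2211 CPM in cyrbia, against 923, 736, 1122 and 624 CPM in demophoon (edgeR FDR 0.256).

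MSTRG.21688 had 45.2, 30, 8.61 and 24.7 CPM in the cyrbia main wing at 70%, against 0.712, 1.6, 0.429 and 1.67 CPM in demophoon (log2 fold change 4.64, SE 0.99, edgeR FDR 0.00926). MSTRG.21638 (gene model 102) had a small but tight difference, with 10.9, 10.1, 9.84 and 11 CPM in cyrbia, against 5.24, 6.61, 7.46 and 6.86 CPM in demophoon (log2 fold change 0.68, SE 0.17, edgeR FDR 0.0238). Neither pair of groups overlapped. The call of MSTRG.21638 ended without animal 9, 12, 13 or 14 (edgeR FDR 0.0545 to 0.0771) and with sex in the fit, and that of MSTRG.21688 held in every alternative tried.

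Among the loci lower in cyrbia at 70%, MSTRG.21863 (gene models 252 and 253) had 58.7, 69.4, 34 and 59.4 CPM in the main wing, against 231, 276, 328 and 260.4 CPM in demophoon (log2 fold change −2.30, SE 0.40, edgeR FDR 0.00277). MSTRG.21504 (gene model 29) had 11.3, 7.39, 9.18 and 12.7 CPM, against 45, 58.5, 47 and 53.3 CPM in demophoon (log2 fold change −2.32, SE 0.47, edgeR FDR 0.00666). In both loci every demophoon library was more than 3 times the highest cyrbia library, and the anterior hindwing gave the same direction (edgeR FDR 0.0133 and 0.0068). At 50% MSTRG.21863 varied widely in both subspecies, with 83.8 to 295 CPM in the cyrbia main wing and 107 to 386 CPM in that of demophoon.

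In 2 of the loci lower in cyrbia at 70% 1 demophoon animal lay far above the others. MSTRG.21522 (gene model 38) had 5.96, 4.85, 2.97 and 5.85 CPM in the cyrbia main wing, against 5.39, 11.4, 78.2 and 9.14 CPM in demophoon (log2 fold change −2.39, SE 0.67, edgeR FDR 0.0371). Animal 15, the demophoon male, was alone at a high level. Without it the log2 fold change was −0.81 and the call ended (edgeR FDR 0.235), as it did without any of animals 9 to 12 (edgeR FDR from 0.0665), with the 8 libraries of the stage alone (edgeR FDR 0.13) and with the regions summed (edgeR FDR 0.0583). MSTRG.21709 (gene model 137) had 0, 0.554, 0.127 and 0.312 CPM in cyrbia, against 0.458, 1.28, 0.859 and 18.5 CPM in demophoon (log2 fold change −4.31, SE 1.19, edgeR FDR 0.034). Here animal 16, a female, was alone at a high level in both regions, and without it the log2 fold change was −1.74 (edgeR FDR 0.245). The call also ended without animal 9, 11 or 12, with edgeR FDR from 0.0674, and without animal 10 the log2 fold change was −4.97. With sex in the fit (edgeR FDR 0.2104) and with the 8 libraries of the stage alone (edgeR FDR 0.111) it ended too.

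Of the Z loci DE at 50% and at 70% in the main wing, 9 were shared, 29.0% of the first list and 45.0% of the second, which come from different animals. In 8 of the 9 the direction was the same, 2 higher and 6 lower in cyrbia. Over annotated loci elsewhere 153 were shared, 31.4% and 29.5% of the lists at 50% and 70%, and 151 of these had the same direction. Over all loci 661 were shared, 44.1% and 46.5% of the lists, and 657 had the same direction. Of these 8 loci, 7 were also DE in the same direction at both stages in the anterior hindwing of the same animals. These 7 loci lie at gene models 39, 81, 91, 121, 196, 200 and 534 and are described next.

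MSTRG.21793 (gene model 200) had little spread among animals. It had 21.1, 26.4, 31.7 and 22.1 CPM in the cyrbia main wing at 50%, against 55.9, 51.8, 62.7 and 48.9 CPM in demophoon (log2 fold change −1.10, SE 0.16, edgeR FDR 0.000708), and 47.7, 39.3, 42 and 42.2 CPM at 70%, against 110.3, 110.1, 134 and 101 CPM (log2 fold change −1.40, SE 0.16, edgeR FDR 0.000104). The anterior hindwing repeated these levels, with 25.8 to 31.3 CPM in cyrbia, against 54.8 to 56.9 CPM in demophoon at 50%, and 39 to 51.9 CPM, against 102 to 139.8 CPM at 70%. No library of 1 subspecies fell within the range of the other at the same stage and region. The locus was also higher at 70% than at 50% in both subspecies.

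MSTRG.21687 (gene model 121) was lower in cyrbia by a similar factor at both stages. The main wing had 36, 18.8, 30.8 and 33.9 CPM in cyrbia, against 119, 93.5, 98.7 and 98.5 CPM in demophoon of that stage (log2 fold change −1.77, SE 0.22, edgeR FDR 0.000258), and 54.9, 49.3, 50.1 and 50.1 CPM, against 99.5, 184, 144 and 182 CPM at 70%, with log2 fold change −1.57, SE 0.22, edgeR FDR 0.000572. Log2 fold changes in the anterior hindwing were −1.88 ± 0.25 and −1.56 ± 0.25 (±SE). The groups did not overlap in any of the 4 sets. This locus lies beside MSTRG.21688 and MSTRG.21689, which were higher in cyrbia in the subspecies comparisons in which they were DE.

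MSTRG.22320 (gene model 534), next to MSTRG.22315, had 6.39, 8.12, 9.92 and 6.79 CPM in the cyrbia main wing at 50%, against 26.7, 16.7, 19 and 17.2 CPM in demophoon (log2 fold change −1.34, SE 0.20, edgeR FDR 0.000933). At 70% the values were 7.77, 11.2, 11 and 10.1 CPM, against 24.5, 21.4, 17.6 and 22.5 CPM (log2 fold change −1.09, SE 0.20, edgeR FDR 0.00354). There was no overlap at either stage. The call in the anterior hindwing at 70% (edgeR FDR 0.0181) ended without animal 12, 13 or 16 (edgeR FDR 0.0503 to 0.0613) and with sex in the fit.

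MSTRG.21613 (gene model 91) was lower in cyrbia with 6.23, 4.83, 4.36 and 3.5 CPM in the main wing at 50%, against 18.7, 20.1, 16.7 and 23.9 CPM in demophoon (log2 fold change −2.06, SE 0.45, edgeR FDR 0.011). At 70% the cyrbia main wing had 13.6, 13.4, 13.2 and 14.8 CPM and that of demophoon 36.6, 91.9, 42.9 and 9.1 CPM. The groups were apart at 50%, but at 70% demophoon animal 16 lay below every cyrbia animal, and the call (edgeR FDR 0.0265) ended without animals 9 to 12, 14 or 15 in turn (edgeR FDR 0.0526 to 0.0999). It also ended with sex in the fit (edgeR FDR 0.0742) and with the 8 libraries of the stage alone (edgeR FDR 0.1103). Without animal 14, the highest, the log2 fold change was −1.10. The anterior call at 70% ended without animal 11 or 14 (edgeR FDR up to 0.0516).

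MSTRG.21523 (gene model 39) was the only well expressed locus of the 7 that was higher in cyrbia. It had 15.1, 11, 28.9 and 22.3 CPM in the cyrbia main wing at 50%, against 7.97, 6.06, 7.95 and 9.38 CPM in demophoon (log2 fold change 1.3, SE 0.32, edgeR FDR 0.02), and 43.7, 37.4, 42.6 and 43.5 CPM at 70%, against 25.5, 12.2, 17.7 and 8.32 CPM (log2 fold change 1.40, SE 0.32, edgeR FDR 0.014). The ranges did not overlap in either region at either stage. The main wing call at 50% ended without animal 3, 5, 6 or 7 (edgeR FDR 0.0520 to 0.0618), and that at 70% with sex in the fit (edgeR FDR 0.0786).

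The remaining 2 loci were present in 1 subspecies and nearly absent in the other. MSTRG.21597 (gene model 81) had 17, 0, 13 and 10 counts in the cyrbia main wing at 50% and 7, 34, 25 and 15 at 70%, and 0 counts in all 8 demophoon main wings. A single cyrbia library at 50% overlapped with demophoon at 0 counts, and the groups at 70% were apart. On the CPM scale it was at least 2.12-fold higher in cyrbia at 50% and at least 6.90-fold higher at 70%. In the demophoon anterior hindwing 1 of 8 libraries had a count, 4 in animal 16. At these low counts the call at 50% ended without any one of animals 1 and 3 to 12 (edgeR FDR 0.0536 to 0.0879), that at 70% without animal 15 (edgeR FDR 0.0524), and the anterior call at 70% without animal 9, 11, 13, 14 or 15 (edgeR FDR 0.0574 to 0.0845). With sex in the fit the main wing calls at 50% and 70% (edgeR FDR 0.0658 and 0.0844) and the anterior call at 70% (edgeR FDR 0.123) ended as well. The fitted log2 fold change of that anterior call, 4.98, was 8.04 without animal 16 and 4.28 without animal 9.

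MSTRG.21787 was the reverse. The cyrbia main wing had 0, 0, 2 and 0 counts at 70%, against 20, 56, 115 and 52 in demophoon, after 0 counts in all 4 cyrbia main wings at 50%, against 217, 0, 132 and 110 in demophoon. The 0 count among the demophoon main wings belonged to animal 6, and the anterior hindwing of that animal had 102 counts. Its main wing library was the smallest of all, with a total of 9330883 counts. The other demophoon main wings at 50% had totals of 32041678 to 53219769. The reason for the 0 was not tested. In the anterior hindwing the locus had 2, 0, 0 and 0 counts in cyrbia, against 170, 102, 164 and 63 in demophoon at 50%, and no count in cyrbia, against 81, 150, 45 and 49 in demophoon at 70% (at least 14.8-fold lower). All 4 calls held in every alternative tried, although the fitted log2 fold change in the main wing at 70%, −6.27, was −8.77 without animal 11, and that in the anterior hindwing at 50%, −7.67, was −9.90 without animal 1.

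**Figure D3:**
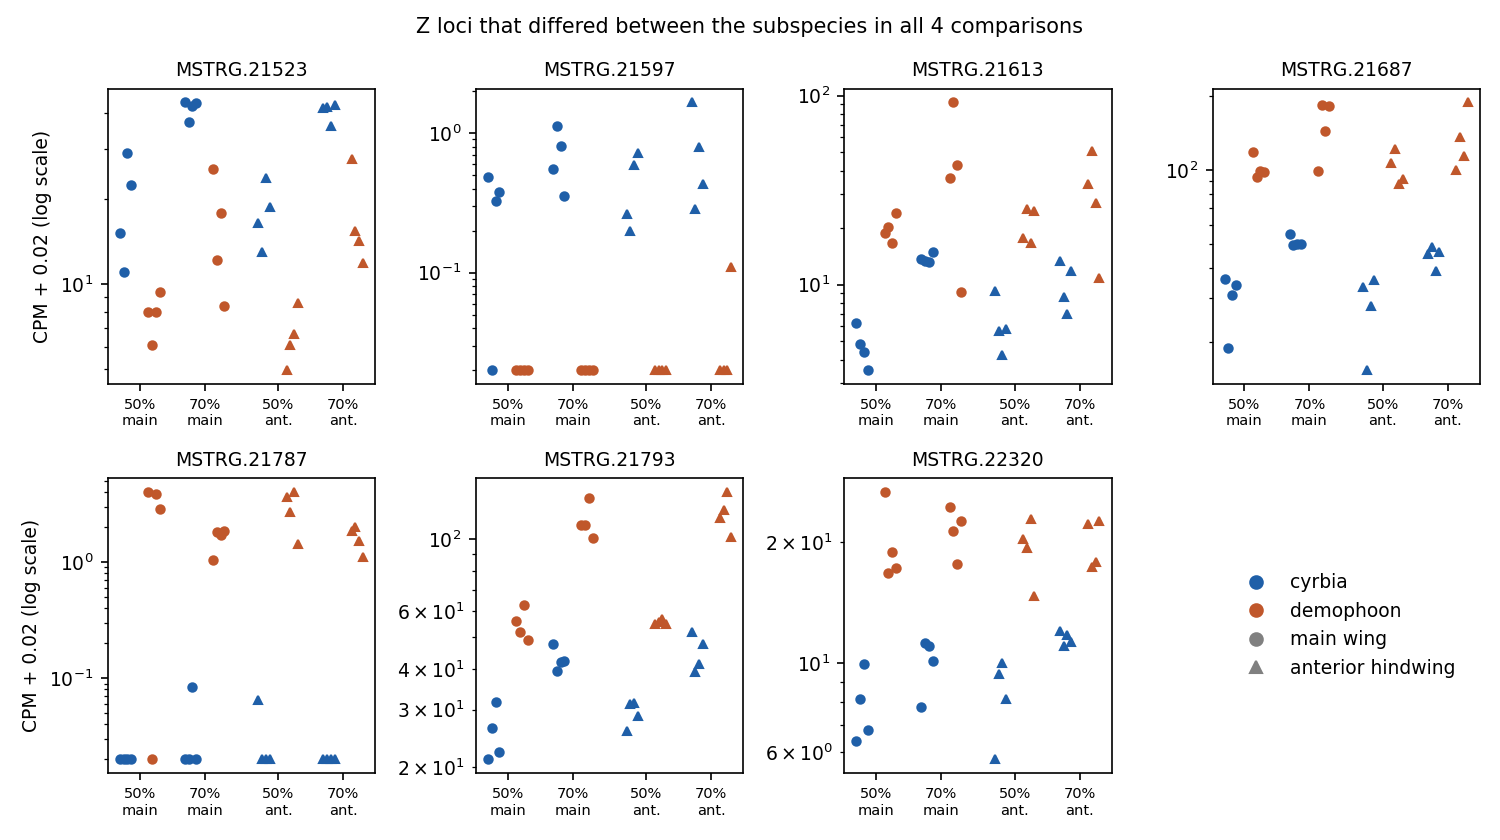
CPM (log scale, with a small offset so that 0 can be drawn) of the 7 Z loci called in the same direction at both stages and in both wing regions, 1 panel per locus and 1 point per animal, with cyrbia in blue left of demophoon in orange and the main wing as circles and the anterior hindwing as triangles. MSTRG.21793, MSTRG.21687, MSTRG.22320 and MSTRG.21523 separate the subspecies in all 4 sets of libraries, and MSTRG.21597 and MSTRG.21787 lie at or near a count of 0 in 1 subspecies.

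Whether the subspecies difference changed with stage was tested as an interaction. In the main wing 1 of 248 Z loci passed (0.403%, against 0.0517% of all 15485 loci), and in the anterior hindwing 2 of 254 (0.787%, against 0.188% of all 16457 loci). The locus in the main wing was MSTRG.22095 (gene model 411), which had 77, 111, 38 and 48 counts in cyrbia at 50%, against 14, 6, 10 and 19 in demophoon, but 0 counts in all 4 cyrbia main wings at 70%, against 7, 10, 9 and 5 in demophoon. It was thus higher in cyrbia at 50% (edgeR FDR 0.0431) and lower at 70% (at least 2.03-fold, edgeR FDR 0.00288), at means of 1.96 CPM or less. The interaction (edgeR FDR 0.026) ended without any one of animals 5 to 8 and 11 to 14 (edgeR FDR 0.0504 to 0.0917) and with sex in the fit.

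In the anterior hindwing the interaction was called for MSTRG.22230, which was higher in cyrbia at 50% and did not pass at 70% (change of the log2 fold change at 70% relative to 50% −3.61 ± 0.53, ±SE, edgeR FDR 0.0198, and 0.0669 without animal 6). It was also called for MSTRG.21511 (gene model 33). That locus had 25.7, 19.9, 14.8 and 20.9 CPM in the cyrbia anterior hindwing at 50%, against 19, 21.3, 17.7 and 26.9 CPM in demophoon, and 7.14, 6.31, 7.89 and 9.06 CPM at 70%, against 22.5, 25.5, 21.1 and 19.5 CPM. The subspecies overlapped at 50% and were well apart at 70%. This call was marginal (edgeR FDR 0.0466) and ended without any one of 14 animals (edgeR FDR 0.0501 to 0.113), animals 3 and 8 being the exceptions. In the main wing the count of interactions was 2 without animal 2 or animal 4. DESeq2 called 11 Z loci, a count for which the share over other loci is not given.

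Because sex is spread unevenly over the groups, subspecies were also compared within a sex. Between the 2 cyrbia and 3 demophoon females at 50%, 5 of 248 Z loci were DE in the main wing (2.02%, against 1.9% of all 15485 loci). MSTRG.21689 (5.43 ± 0.95, log2 ± SE) and MSTRG.22230 (4.05 ± 0.67) were higher in cyrbia, and MSTRG.21687 (−2.05 ± 0.30), MSTRG.21793 (−0.96 ± 0.18) and MSTRG.22320 (−1.19 ± 0.24) lower. The count was 1 without animal 3 and 2 without animal 5 or 7. Between the 4 cyrbia males and the 1 demophoon male at 70%, 4 passed in the same fit (1.61%, against 1.65% of all loci). The spread of a single male is not measured and is borrowed from the other groups, so that these calls compare cyrbia with that 1 animal. The log2 differences were −1.63 for MSTRG.21793, −2.55 for MSTRG.21863, −1.48 for MSTRG.21687 and −3.98 for MSTRG.21522, and the last was the locus in which this animal stood alone. The count was 2 without animal 9, 11 or 12.

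Along the scaffold the DE loci were spread over most of the expressed stretch. In bins of 50 gene models, the 28 tested loci of models 1 to 50 held 6 DE loci at 50% and 4 at 70%, and the 31 tested loci of models 101 to 150 held 4 and 6. Models 201 to 250 held 3 DE loci at 50%, all higher in cyrbia, and 0 of 31 at 70%, and models 451 to 500 held 1 at 50% and 0 of 32 at 70%. In models 151 to 200, 5 of 29 were DE at 50% and all 5 were lower in cyrbia. The omitted stretch lies between MSTRG.21882 (gene model 267) and MSTRG.22086 (gene model 406), so that it takes loci from models 251 to 300 and the start of 401 to 450 as well. Models 301 to 400 held 26 of the 414 loci, and 2 of these were tested.

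The median log2 fold change at 50% was at or below 0 in 10 of the 11 bins, from −0.37 (models 151 to 200) to 0 (models 201 to 250) in bins of more than 1 tested locus. The exception, at 0.24, had a single tested locus. Of 232 pairs of neighbouring tested loci, at most 3 model numbers apart, both members were DE in 4 pairs at 50%, 3 of them in the same direction, and in 3 pairs at 70%, of which 1 was in the same direction. No rate for loci far apart or for other chromosomes is set beside these counts. Whether calls cluster along the Z was not tested.

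**Figure D4:**
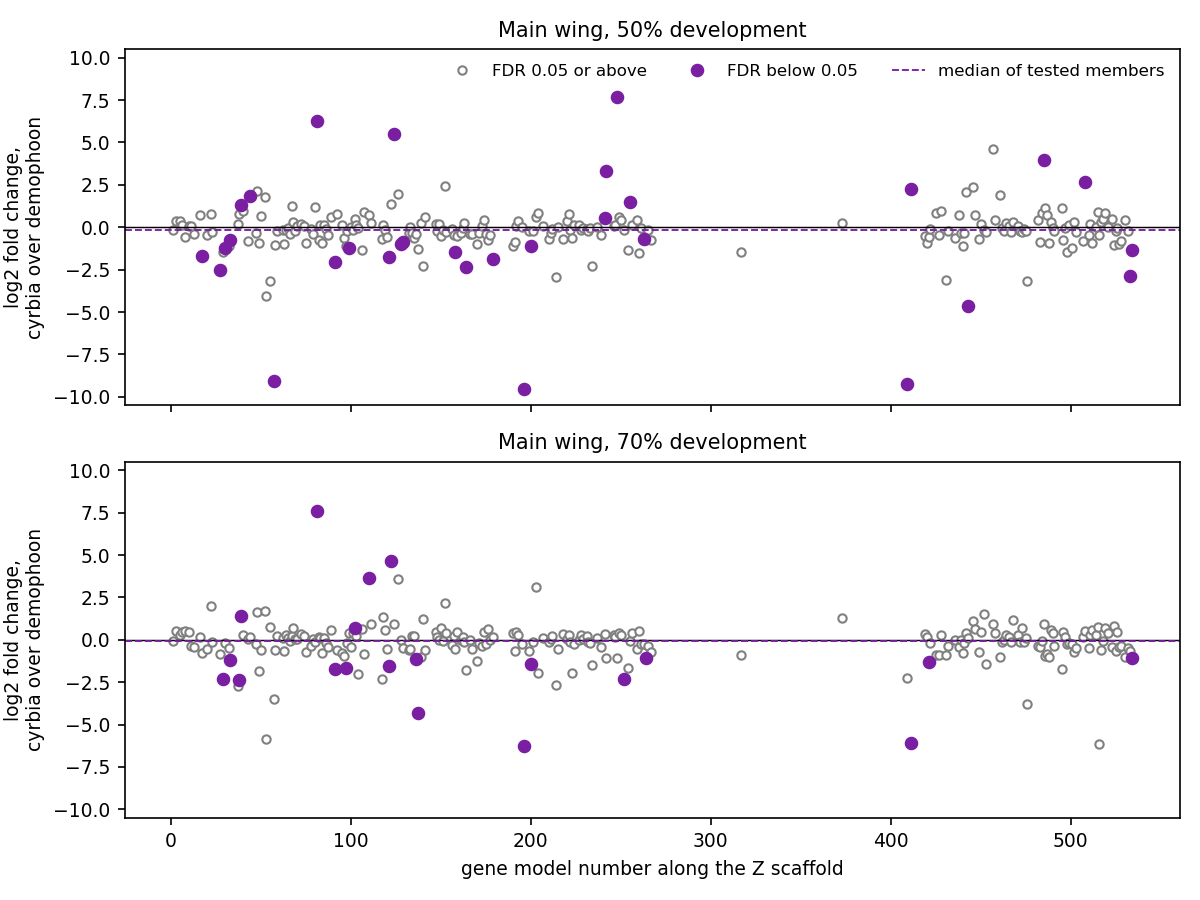
Log2 fold change of cyrbia over demophoon in the main wing for the 248 tested Z loci against gene model number, at 50% development above and 70% below, with loci at an FDR below 0.05 in purple, the others open and the median as a dashed line. Calls lie on both sides of the gap left by the omitted stretch, and 20 of 31 at 50% and 15 of 20 at 70% are below 0.

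Stage gave larger and more frequent differences than subspecies. In the cyrbia main wing 73 of 248 Z loci were DE between 70% and 50% (29.4%, against 26.1% of all 15485 loci and 34.7% of annotated loci elsewhere), 26 higher (all loci 12.3%) and 47 lower (all loci 13.7%) at 70%. In demophoon it was 81 (32.7%, against 28.1% of all loci and 37.1% of annotated loci elsewhere), 28 higher (all loci 15%) and 53 lower (all loci 13.1%). The cyrbia anterior hindwing had 87 DE loci of 254 (34.3%, against 24.3% of all 16457 loci and 32.7% of annotated loci elsewhere), 28 higher (all loci 12.4%) and 59 lower (all loci 11.9%). That of demophoon had 70 (27.6%, against 23.1% of all loci and 30.8% of annotated loci elsewhere), 31 higher (all loci 12.9%) and 39 lower (all loci 10.2%). Library numbers in the labels run from the later to the earlier stage, so that library order and stage cannot be told apart. In cyrbia the stages also differ in sex, with 2 males and 2 females at 50% and males alone at 70%. The demophoon groups have the same numbers of each sex at both stages. Leaving out 1 animal gave 68 to 78 DE loci in cyrbia and 71 to 86 in demophoon in the main wing.

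The lists of the 2 subspecies come from different animals. They shared 54 loci in the main wing, 74.0% of the cyrbia list and 66.7% of the demophoon list, and 53 of the 54 had the same direction, 20 higher and 33 lower at 70%. For the anterior hindwing 51 were shared (58.6% and 72.9%), all in the same direction. For annotated loci elsewhere 73.7% and 68.8% of the cyrbia and demophoon lists were shared in the main wing and 67.7% and 72.0% in the anterior hindwing, with at least 99.8% of the shared loci in the same direction. Over all loci these shares were 69.7% and 64.7% in the main wing and 64.1% and 67.2% in the anterior hindwing. The median difference was −0.18 in the cyrbia main wing and −0.30 in that of demophoon, against −0.11 and −0.04 for annotated loci elsewhere. Of the 248 loci, 135 were DE in none of the 4 subspecies and stage comparisons of the main wing, 71 in stage comparisons only, 13 in subspecies comparisons only and 29 in both kinds. The same split is not given for other loci, so it is not read as particular to the Z.

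**Figure D5:**
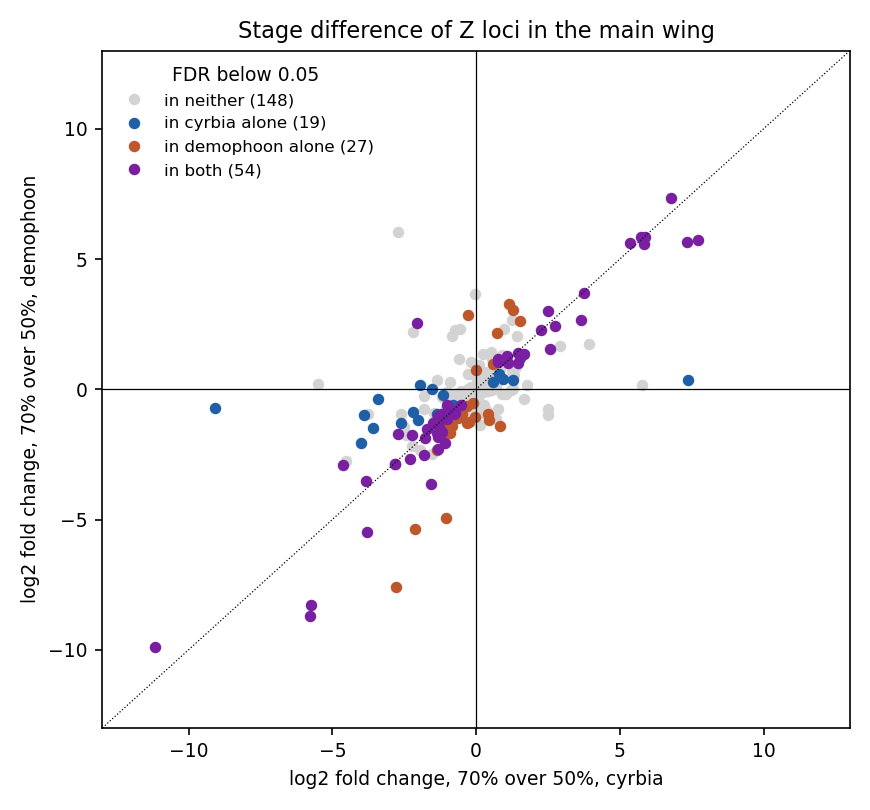
Log2 fold change between 70% and 50% development in the main wing of cyrbia (horizontal) and demophoon (vertical) for the 248 tested Z loci, coloured by the subspecies in which the FDR was below 0.05, with equal changes on the dotted line. Of the 54 loci called in both, 53 have the same sign, and the exception is MSTRG.21689, which was lower at 70% in cyrbia and higher at 70% in demophoon.

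The same 5 loci led the increase with stage in both subspecies. MSTRG.21608 (gene model 87) had 1.49, 2.27, 1.05 and 1.22 CPM in the cyrbia main wing at 50% and 108, 80, 85.6 and 82.7 CPM at 70%, with log2 fold change 5.89, SE 0.26, edgeR FDR 2.04e-09. In demophoon it had 2.08, 1.54, 2.41 and 2.36 CPM at 50% and 114, 129, 109.9 and 135 CPM at 70%, with log2 fold change 5.85, SE 0.26, edgeR FDR 1.44e-09. The stages were far apart in each subspecies, with little spread among animals, and the anterior hindwing gave differences of 5.47 in cyrbia and 5.86 in demophoon on the log2 scale.

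MSTRG.22135 (gene model 432) reached the highest level of the 5. In the main wing it had 29.4, 18.7, 6.42 and 50 CPM in cyrbia at 50% and 2439, 649, 1292 and 1220.0 CPM at 70%, with log2 fold change 5.75, SE 0.63, edgeR FDR 8.07e-06. It had 33.8, 46.6, 20.7 and 23.9 CPM in demophoon at 50% and 1928, 1309, 2589.6 and 1331 CPM at 70%, with log2 fold change 5.84, SE 0.63, edgeR FDR 6.30e-06. MSTRG.21699 (gene model 132) had 1.47 to 8.4 CPM at 50% and 126 to 179.7 CPM at 70% in cyrbia, and 3.21 to 6.62 CPM and 119.5 to 385 CPM in demophoon. No library at 70% came near the range at 50% in either locus. Without animal 2 the log2 fold change of MSTRG.21699 in cyrbia was 6.09, against 5.36 with it.

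MSTRG.21643 (gene model 106) and MSTRG.21503 (gene model 27) were close to silent at 50%. MSTRG.21643 had 0.19, 0, 0.233 and 0 CPM in the cyrbia main wing at 50% and 23.9, 17.5, 38.3 and 19.1 CPM at 70%, and 0.465, 0, 0.324 and 0.259 CPM and 15.9, 6.22, 29.7 and 12.6 CPM in demophoon. In the anterior hindwing at 70% it had 152, 61.9, 99.7 and 135 CPM in cyrbia, against 4.16, 5.11, 99.7 and 14.1 CPM in demophoon. Demophoon animal 15, the male, was alone at the level of the cyrbia animals, which were all male, so that subspecies and sex cannot be told apart here. MSTRG.21503 had 0, 0.369, 0.0467 and 0.143 CPM in the cyrbia main wing at 50% and 35.2, 16, 18.2 and 19.9 CPM at 70%, and 1.6, 0.411, 0.795 and 0.259 CPM and 34, 46.3, 45.4 and 33.7 CPM in demophoon. The fitted log2 fold change of MSTRG.21643 in cyrbia was 7.73, and 8.43 without animal 3. That of MSTRG.21503 was 7.32 in cyrbia, and 8.51 without animal 2, and in demophoon it was 5.64, and 6.31 without animal 5.

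Of the loci lower at 70%, MSTRG.22162 (gene model 446) was close to 0 at the later stage. The main wing had 49.1, 101, 599 and 468 CPM in cyrbia at 50% and 0, 0.391, 0.0949 and 0 CPM at 70%, and 97.2, 48.5, 39.5 and 56 CPM in demophoon at 50% and 0, 0, 0.148 and 0 CPM at 70%. Its edgeR FDR was 1.00e-05 in cyrbia and 2.43e-05 in demophoon. At 50% cyrbia animals 3 and 4 were again far above animals 1 and 2. The fitted log2 fold changes, −11.17 and −9.91, rest on the few counts at 70%, and were −12.98 without animal 10 in cyrbia and −13.89 without animal 15 in demophoon.

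MSTRG.21653, which was abundant at 50%, fell in both subspecies at 70%, with log2 fold changes of −5.78 ± 0.46 in cyrbia and −8.69 ± 0.52 in demophoon (±SE). MSTRG.21648 (gene model 107) had 594, 464, 1059 and 804 CPM in the cyrbia main wing at 50% and 18.5, 22.2, 35.7 and 40.8 CPM at 70%, with log2 fold change −4.63, SE 0.68, edgeR FDR 0.000137. It had 233 to 495 CPM at 50% and 14.9 to 143 CPM at 70% in demophoon (log2 fold change −2.90, SE 0.63, edgeR FDR 0.00291). MSTRG.21641 (gene model 104) was lower at 70% in cyrbia (log2 fold change −4.00, SE 0.86, edgeR FDR 0.00299, and −4.85 without animal 11). In demophoon its main wing had 904, 759, 675 and 611 CPM at 50% and 167, 51, 462 and 28.7 CPM at 70%, and the difference did not pass (edgeR FDR 0.068). These 3 loci lie between gene models 104 and 110, on either side of MSTRG.21643.

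MSTRG.22187 (gene model 461) was lower at 70% in cyrbia, with 22.6, 23.1, 370.4 and 164 CPM in the main wing at 50% and 11.5, 10.6, 10.3 and 5.96 CPM at 70%, with log2 fold change −3.91, SE 0.81, edgeR FDR 0.00227. Without animal 3, the highest, the log2 fold change was −2.87. In demophoon it did not pass (edgeR FDR 0.355). MSTRG.22170 (gene model 452) was lower at 70% in both, with 159, 164, 7 and 36 CPM and 3.39, 7.3, 4.81 and 11 CPM in cyrbia (edgeR FDR 0.0166) and 69, 73.6, 95.8 and 174 CPM and 0.509, 7.47, 0.118 and 1.21 CPM in demophoon (log2 fold change −5.46, SE 1.17, edgeR FDR 0.00254, and −7.45 without animal 14). Cyrbia animals 3 and 4 were the low ones at 50% in this locus.

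In demophoon alone, MSTRG.21688 was lower at the later stage (log2 fold change −5.37, SE 1.02, edgeR FDR 0.00106), whereas in cyrbia it did not pass (edgeR FDR 0.085). MSTRG.22155 was lower too, with a log2 fold change of −7.57 ± 1.38 (±SE, edgeR FDR 0.000762), −5.66 without animal 8 and −6.99 without animal 15. The difference between the subspecies in these 2 changes was not called (edgeR FDR 0.353 and 0.341). MSTRG.21689 was lower at 70% in cyrbia (−2.05 on the log2 scale, edgeR FDR 0.0236) and higher in demophoon (2.54, edgeR FDR 0.00979), and its interaction missed the threshold (edgeR FDR 0.0759).

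The abundant loci MSTRG.21831 (gene model 222) and MSTRG.21874 (gene model 261) were lower at 70% in both subspecies. MSTRG.21831 had 1535, 1412, 896 and 1330.1 CPM in the cyrbia main wing at 50% and 140.4, 190.3, 219.6 and 179 CPM at 70%, and 1411, 1162, 1478 and 1666 CPM and 185, 202, 195 and 206 CPM in demophoon. The log2 fold changes were −2.82 ± 0.20 and −2.85 ± 0.20 (±SE). MSTRG.21874 had 617 to 1049.6 CPM at 50% and 282 to 419 CPM at 70% in cyrbia, and 734 to 994 CPM and 321 to 589.6 CPM in demophoon, with log2 fold changes of −1.19 ± 0.22 and −0.96 ± 0.22. Subspecies differences of both loci lay between −0.26 and −0.03 in the main wing and did not pass.

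Few Z loci were DE between the main wing and the anterior hindwing of the same animal. With the animal as a block, 3 of 263 Z loci were DE in cyrbia at 50% (1.14%, against 0.186% of all 18276 loci) and 1 at 70% (0.38%, against 0.252%). In demophoon 0 were DE at either stage in edgeR (all loci 0.0985% at 50% and 0.367% at 70%). There 33 and 34 of 263 had an unadjusted p below 0.05 (12.5% and 12.9%, against 7.59% and 10.3% of all loci). DESeq2 called 10 at each stage, a count for which the share over all loci is not given. The small edgeR counts moved with single animals. In cyrbia at 50% the count was 0 without animal 1, 2 or 12 and 1 without animal 3, 6, 13, 14 or 16, and in cyrbia at 70% it was 2 without animal 3 or 10. In demophoon it was 2 without animal 8 and 1 without animal 1 or 2 at 50%, and 3 without animal 16 and 1 without animal 6 at 70%. The interquartile range of the log2 differences lay between −0.30 and 0.14 in cyrbia at 50% and between −0.16 and 0.29 in demophoon at 50%.

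MSTRG.21710 (gene model 139) had 4.98, 53.2, 85.3 and 22.7 CPM in the main wing of cyrbia at 70%, against 1.59, 12.1, 30.1 and 4.83 CPM in the anterior hindwing of the same animals (log2 fold change 1.89, SE 0.27, edgeR FDR 0.00483). It was higher in the main wing in 4 of 4 animals, although the animals themselves spread more than 10-fold, and without the block the call ended (edgeR FDR 1). In cyrbia at 50%, MSTRG.22135 was higher in the main wing, with 29.4, 18.7, 6.42 and 50 CPM, against 8.49, 6.55, 5.27 and 31.5 CPM (log2 fold change 1.07, SE 0.19, edgeR FDR 0.033). MSTRG.22176 (gene model 453) was also higher there, with 4.12, 3.29, 3.27 and 1.89 CPM, against 1.46, 1.85, 0.543 and 1.02 CPM (edgeR FDR 0.0428). MSTRG.21507 (gene model 30) was lower in the main wing, with 61.1, 97.7, 43.4 and 59.4 CPM, against 132, 149, 58.6 and 94.3 CPM (edgeR FDR 0.0428).

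All 3 differences at 50% had the same direction in 4 of 4 animals. The 3 calls ended without the block and depended on single animals. That of MSTRG.22135 ended without animal 1, 2 or 12 (edgeR FDR 0.0585 to 0.213). That of MSTRG.22176 ended without animal 1, 2, 3, 6, 12, 13, 14 or 16 (edgeR FDR 0.0549 to 0.213), and that of MSTRG.21507 without animal 1 to 4, 6, 8, 12, 13, 14 or 16 (edgeR FDR 0.0501 to 0.241). MSTRG.21507 was also lower in cyrbia than in demophoon in the main wing at the earlier stage (log2 fold change −1.22, SE 0.25, edgeR FDR 0.00649). It was lower at 70% than at 50% in both subspecies.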

How the data were processed

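Wings of 16 pupae gave 32 RNA-seq libraries (TruSeq kit). The authors deposited raw counts per locus and library. The submitters' processing notes name Trimmomatic 0.38, HISAT2 2.1.0, SAMtools 1.9, StringTie 1.3.5 and edgeR, so that counts of loci numbered MSTRG belong to transcripts assembled from these reads. The use of strand in counting was not stated, so that overlapping and antisense loci, and near-identical copies, cannot be told apart.

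Counts were analysed in R 4.3.3 with edgeR 4.0.16. Low counts were removed with filterByExpr, libraries were scaled by TMM, and robust quasi-likelihood fits were made over all loci of the table, with Benjamini-Hochberg adjustment over all of them. Main wing and anterior hindwing libraries were fitted apart, with the 4 groups of subspecies and stage as means. Sex was added in a separate fit. Region was tested over the 32 libraries together, blocked by animal. The block comes from the individual number in the labels, and the 2 libraries of an animal deviated together in 16 of 16 animals (r of 0.57 to 0.84 over 5064 loci). Replicates are separate animals, and p-values measure the spread between them. The script was tested on simulated data with known fold changes.

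The loci and lists described were chosen with earlier results of these data known. In each main wing comparison of subspecies or stage, up to 5 loci per direction were named, by the largest log2 fold change among those called with at least 5 CPM in the higher group. Loci called the same way in all 4 subspecies comparisons, loci called for region, sex or interaction, and the 5 loci with the highest mean CPM were named too. Alternatives were RLE size factors, no filter, DESeq2 1.42.0, sex as a covariate, summed regions, the 8 libraries of a stage alone, no block for region, and leaving out each animal. No sequence was used here.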

Additional observations from a re-analysis of the deposited data

Results flagged for a closer look

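In 21 of 237 groups of 4 libraries examined, 1 library lay far from the other 3 by Dixon's criterion. Chance alone flags about 1 in 20 groups where values are normally distributed. Whether these values are so distributed was not tested, so that the count of flags is not set against that rate. The 2 libraries of an animal share that animal, so that flags in both regions are not independent.

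Demophoon animal 16, a female at 70%, was the highest of its group for MSTRG.21709 (18.5 CPM in the main wing and 18.1 CPM in the anterior hindwing), MSTRG.22176 (27.2 and 25.7 CPM) and, in the anterior hindwing alone, MSTRG.22187 (34.2 CPM). Demophoon animal 15, the male at 70%, was the highest for MSTRG.21522 in the main wing (78.2 CPM) and MSTRG.21643 in the anterior hindwing (99.7 CPM), and the lowest for MSTRG.21608 in the anterior hindwing (95.8 CPM). Its Z level in the main wing (0.21, log2) was also the highest of its group. Demophoon animal 8, the male at 50%, was the highest for MSTRG.22155 in both regions (84.5 CPM in the main wing and 54.7 CPM in the anterior hindwing).

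Cyrbia animal 3, a female at 50%, was the highest for MSTRG.21710 in both regions, with 83.7 CPM in the main wing and 131 CPM in the anterior hindwing. In the cyrbia anterior hindwing at 50%, animal 4 was the highest for MSTRG.22135 (31.5 CPM) and animal 1 the lowest for MSTRG.21842 (854 CPM). At 70%, cyrbia animal 9 was the highest for MSTRG.21689 in the anterior hindwing (11.8 CPM) and for MSTRG.21687 in the main wing (54.9 CPM), and animal 11 the lowest for MSTRG.21523 in the anterior hindwing (36.1 CPM). In the demophoon anterior hindwing, animal 5 was the highest for MSTRG.21533 (10.7 CPM) and animal 7 for MSTRG.21638 (7.44 CPM) at 50%, and animal 13 the lowest for MSTRG.21504 (30.7 CPM) at 70%.

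The subspecies difference changed with stage, by the test of the interaction, for 3 loci. The change of the log2 fold change at 70% relative to 50% was −8.34 for MSTRG.22095 in the main wing, where cyrbia at 70% had 0 counts and the fitted value is no bound. It was −3.61 for MSTRG.22230 and −1.44 for MSTRG.21511 in the anterior hindwing.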

How the results depend on the processing

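Of 70 results on named loci, 48 kept their direction and their side of the threshold in every alternative tried, and none reversed. Of the 1475 values recomputed for named loci, 1335 stayed on their side of the threshold and 140 lost the call. Where a count or value moved, the cause was not tested. Fewer animals leave less power, and the lone demophoon male of a stage and the 0 counts of weakly expressed loci limit what can be called.

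The count of DE Z loci between subspecies at 50% in the main wing was 31, 19 without the filter and 20 when the 8 libraries of that stage were fitted alone. DESeq2 called 46 (18.5%, against 11.1% of annotated loci elsewhere), and with sex as a covariate the count was 23 (9.27%, against 4.49%). At 70% it was 12 with sex as a covariate, against 20 without. In the anterior hindwing DESeq2 called 46 at 50% and 41 at 70%, against 27 and 23 in edgeR. DESeq2 called more elsewhere too. Its shares were 18.1% of Z loci and 13.8% of annotated loci elsewhere at 50%, and 16.1% and 12.9% at 70%. With sex as a covariate the anterior count at 70% was 14. The interaction in the main wing was called for 11 loci by DESeq2 and for 0 with sex as a covariate. DESeq2 called 27 loci within females at 50%. The shares over other loci are not given for this count or for the DESeq2 count of interactions. Neither count is read as particular to the Z. With all annotated Z loci, the omitted stretch included, 33 of 320 were DE at 50% (10.3%) and 23 of 320 at 70% (7.19%) in the main wing, a choice made after seeing the data.

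Without the replicate block that pairs the 2 regions of an animal, the counts for region in cyrbia were 0 at 50% and 0 at 70%. DESeq2 called 9 and 6 loci in cyrbia and 10 and 10 in demophoon, and with RLE size factors edgeR called 1 and 1 in demophoon. The shares over all loci are not given for these counts.

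Leaving out each animal in turn gave 15 to 29 DE loci for subspecies at 50% and 14 to 24 at 70% in the main wing, and 17 to 27 and 17 to 28 in the anterior hindwing. It gave 0 to 2 for the interaction, 1 to 6 within females at 50% and 2 to 5 within males at 70%. For region it gave 0 to 3 and 1 to 2 in cyrbia at 50% and 70%, and 0 to 2 and 0 to 3 in demophoon. For stage in the anterior hindwing it gave 67 to 92 in cyrbia and 60 to 78 in demophoon, and for sex 0 in both regions.

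The mean Z level moved by more than 1 SD of its group in several settings. With loci above a mean log2 CPM of 0 it was 0.32 in the demophoon main wing at 50%, and −0.24 in both cyrbia regions, −0.10 in the demophoon main wing and −0.016 in its anterior hindwing at 70%. Set against chromosome 20 alone, it was 0.40 (main wing) and 0.28 (anterior hindwing) in demophoon at 50%. At 70% it was then −0.16 (main wing) and −0.19 (anterior hindwing) in cyrbia, against −0.056 and −0.066 in demophoon. With all annotated Z loci it was 0.37 and 0.28 in demophoon at 50%, and 0.00086 in the demophoon anterior hindwing at 70%.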
